A study of Drosophila melanogaster with 9 samples.

Results

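The 10 genes described here, ex, kibra, Mer, crb, Diap1 (also called th), E2f1, CycE, dally, dlp and Ser, are reported targets of Yorkie (Yki). They were taken by name from count tables that list 17558 genes, and all 10 were found and passed the filter on low counts, which left 11068 genes to test. The 9 RNA-seq libraries were made from pupal eyes of Drosophila melanogaster, pooled 60 to a library and taken between 40 and 41 hours of pupal life at 25 °C. Every group carried the pGMR-GAL4 driver, which acts in the differentiating eye. In Bon+yki-RNAi eyes (3 libraries) it drove UAS-bon-mCherry, an mCherry-tagged Bonus (Bon) transgene, together with UAS-yki-RNAi (BDSC stock 34067). In Bon eyes (3 libraries) it drove UAS-bon-mCherry alone, and in mCherry eyes (3 libraries), the controls, UAS-mCherry (BDSC stock 35787). A genotype with yki-RNAi and no Bon transgene was not analysed here, so the yki-RNAi values hold for eyes that overexpress Bon.

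Yki is a transcriptional coactivator that works with DNA-binding partners such as Scalloped. The Hippo kinase cascade phosphorylates Yki and keeps it out of the nucleus, and its target genes include upstream regulators of that cascade (ex, kibra, Mer, crb), an inhibitor of caspases (Diap1), cell cycle genes (E2f1, CycE), cell-surface glypicans that shape morphogen gradients (dally, dlp) and a Notch ligand gene (Ser). In the eye the pathway is best known for limiting cell number. Bon is a nuclear cofactor of the TIF1 family, and the design asks how Bon and Yki act on the choice between eye and epidermis.

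Library totals were 37137136 to 39690537 counts in Bon+yki-RNAi, 38754394 to 48485542 in Bon and 34926438 to 48524961 in mCherry. The yki gene averaged 29.2 ± 0.25 CPM in Bon+yki-RNAi, 62.6 ± 0.316 CPM in Bon and 61.1 ± 1.46 CPM in mCherry eyes (CPM, reads of the gene scaled to library size, ± SD, n = 3 each). It fell by 53.3% in Bon+yki-RNAi against Bon (edgeR quasi-likelihood adjusted p = 8.29e-12). The bon gene, with transgene and native transcripts counted together, averaged 4166 ± 48.1 CPM in Bon+yki-RNAi, 4983 ± 258 CPM in Bon and 174 ± 2.94 CPM in mCherry eyes. It was thus also lower in Bon+yki-RNAi than in Bon (log2 fold change -0.26 ± 0.03, adjusted p = 6.14e-05, where ± after a fold change is its standard error), and its part in the differences between these groups was not tested. Of the 15 retinal markers looked at, ninaE, the main opsin gene of outer photoreceptors, was under 0.1 CPM in every group. Crys, a lens crystallin gene of the same list named here after its values were seen, averaged 0.0998 CPM in Bon+yki-RNAi and 0.0674 CPM in Bon eyes, about the level of 3 counts in a library, and 9.48 CPM in mCherry eyes.

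Per kilobase of exon, the 10 genes spanned a wide range. In mCherry eyes Diap1 was highest, at 168 CPM per kb (165 to 170 over 3 libraries), followed by dlp at 126, E2f1 at 51.0, crb at 41.3, kibra at 25.9 and dally at 18.9 CPM per kb. Mer at 8.96 CPM per kb (8.58 to 9.25) and ex at 8.76 (8.14 to 9.34) overlapped, and CycE at 3.66 and Ser at 3.28 CPM per kb were lowest. Diap1 lay at the 96.8th percentile of all tested genes on this scale and Ser at the 28.5th.

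The order of neighbours differed between groups. In Bon eyes dlp stood at 45.2 CPM per kb, below E2f1 at 53.3, and ex at 13.2 CPM per kb (12.3 to 14.1), above Mer at 8.88 (8.61 to 9.25). In Bon+yki-RNAi eyes ex was at 6.21 CPM per kb (6.16 to 6.24), below Mer (7.84 to 8.14), and Ser at 3.14 CPM per kb overlapped CycE at 3.08.

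**Figure D1:**
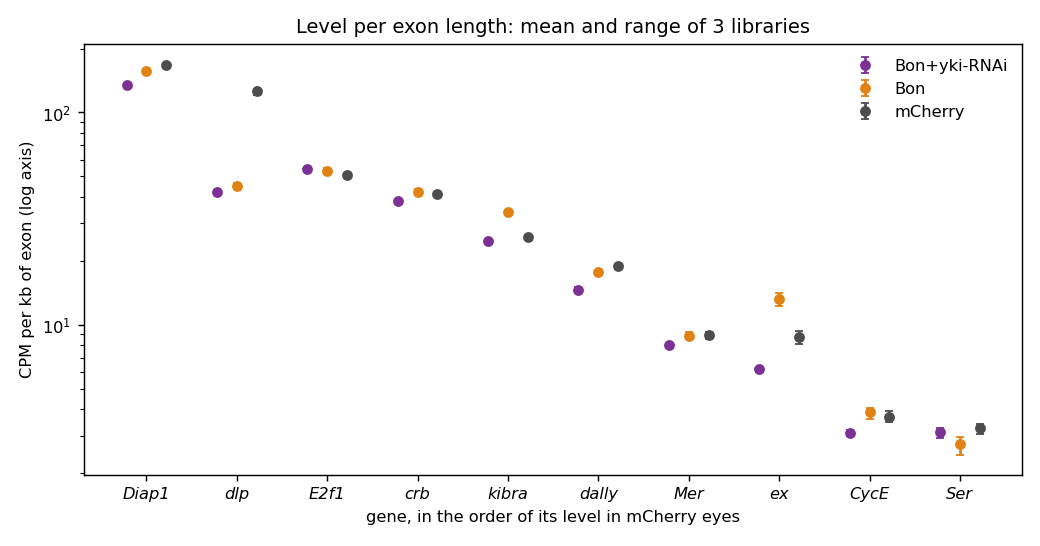
Level of each gene in CPM per kilobase of exon (log axis), with the mean and the range of the 3 libraries in Bon+yki-RNAi, Bon and mCherry eyes. Diap1 was highest in every group (135, 157 and 168 CPM per kb), and dlp in mCherry eyes, at 126, stood far above its level in the other groups.

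When yki-RNAi was added to Bon, 8 of the 10 genes fell and 0 rose in the edgeR quasi-likelihood test at an adjusted p of 0.05. Among all tested genes 16.3% fell and 11.3% rose in this comparison (27.6% in either direction), so that 41.0% of called genes had risen, or 52.3% with upper-quartile scaling. Of the 8, ex fell by 53.2% and dlp, at the other end, fell by 6.41%. The 2 genes not past the threshold were E2f1 and Ser, and these were also the 2 whose libraries overlapped. In 44.4% of all tested genes the libraries of these groups did not overlap. The median log2 fold change of the 10 was -0.19, against -0.01 over all genes. With upper-quartile scaling 7 fell and 1 rose, and with DESeq2 6 fell and 0 rose. Without Bon+yki-RNAi replicate 3 or without Bon replicate 1, 1 gene (Ser) rose. In bulk tissue, fewer cells of a type and less RNA per cell cannot be told apart.

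With Bon overexpressed, 2 of the 10 genes (ex and kibra) rose and 4 (Diap1, dally, dlp and Ser) fell against mCherry. Over all tested genes 25.2% rose and 27.2% fell (52.4% in either direction, of which 48.1% were rises, or 62.6% with upper-quartile scaling), so that the share of called members, 6 of 10, was near the background. Without mCherry replicate 1 the falls numbered 2. The libraries did not overlap for 7 of the 10 genes, and for 58.6% of all genes. The median log2 fold change was 0.01 for the 10 genes and -0.00149 over all genes, and the median size of change, regardless of sign, 0.09 and 0.18. With upper-quartile scaling 5 rose and 2 fell. Between Bon+yki-RNAi and mCherry 7 fell and 1 rose, with 29.4% of all genes falling and 25.1% rising (54.5% in either direction, of which 46.0% were rises, or 63.8% with upper-quartile scaling), and 5 fell and 1 rose with upper-quartile scaling. Without Bon+yki-RNAi replicate 3 the rises numbered 0. There 9 of the 10 genes had libraries that did not overlap, against 61.8% of all genes. The comparison of Bon+yki-RNAi with Bon and that of Bon with mCherry share the Bon libraries, so a deviation in these moves both, in opposite directions.

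**Figure D2:**
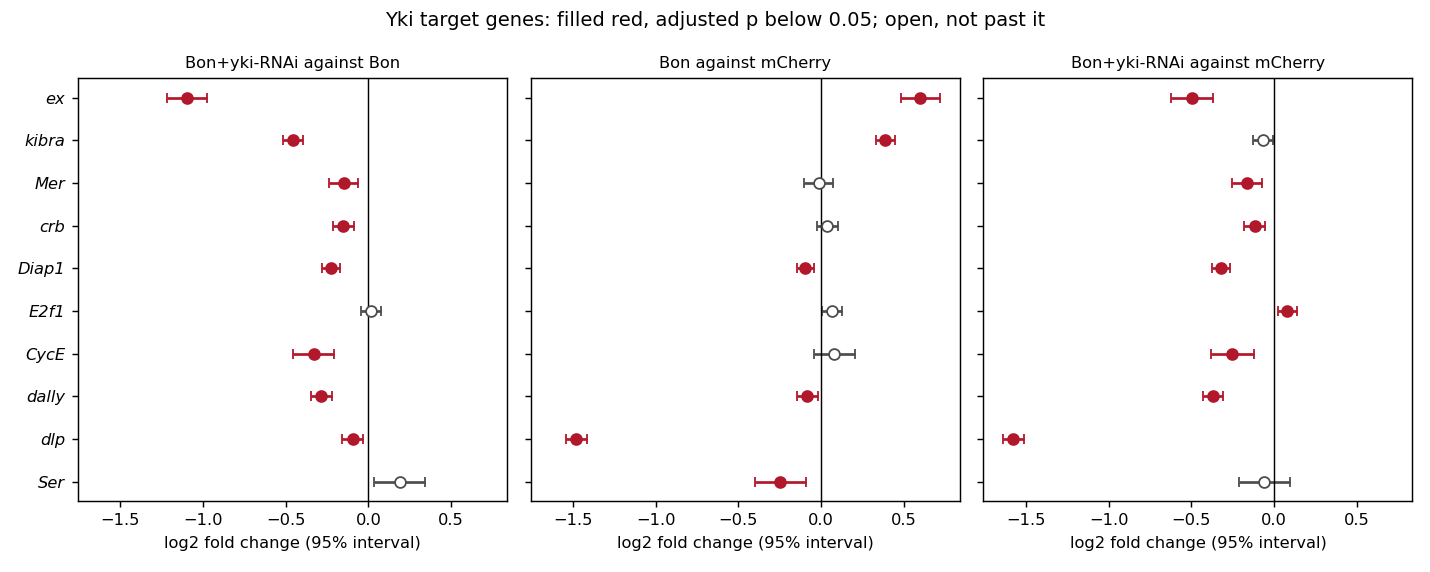
Log2 fold change of each gene with its 95% interval in Bon+yki-RNAi against Bon, Bon against mCherry, and Bon+yki-RNAi against mCherry; filled red points passed an adjusted p of 0.05 and open ones did not. In the left panel 8 of 10 points lie below 0 and are filled, with ex at -1.10, while in the middle panel ex (0.60) and kibra (0.39) lie above 0 and dlp (-1.48) far below it.

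Among the upstream regulators, ex moved most. It encodes Expanded, a FERM-domain protein that acts at the apical junction to promote Hippo signalling and to hold Yki (BDGP6, 2L:431227-448701, plus strand). Its level was 41.1, 41.6 and 41.4 CPM in the Bon+yki-RNAi libraries, 89.4, 94.0 and 81.7 CPM in the Bon libraries and 62.3, 54.3 and 58.8 CPM in the mCherry libraries. The groups did not overlap, with Bon+yki-RNAi lowest and Bon highest. The log2 fold change was -1.10 ± 0.06 in Bon+yki-RNAi against Bon (adjusted p = 3.95e-08) and 0.60 ± 0.05 in Bon against mCherry (1.47e-06). Relative to mCherry, ex in Bon+yki-RNAi fell by 29.1% (-0.50 ± 0.06, 1.25e-05). By size, the change of ex in Bon+yki-RNAi against Bon exceeded that of 97.4% of all tested genes, and that of yki itself also exceeded 97.4%. Of its exonic bases, 6.71% overlap crq on the opposite strand, and crq did not pass the threshold in any of the 3 comparisons (0.03 ± 0.03 in Bon+yki-RNAi against Bon, adjusted p = 0.557).

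The kibra gene encodes a WW-domain scaffold that works with Merlin and Expanded (3R:14697689-14724261, minus strand). It stood at 142, 139 and 146 CPM in Bon+yki-RNAi, 195, 199 and 191 CPM in Bon and 152, 149 and 146 CPM in mCherry libraries. The Bon libraries stood above all others. The log2 fold change was -0.46 ± 0.03 in Bon+yki-RNAi against Bon (adjusted p = 2.48e-08) and 0.39 ± 0.03 in Bon against mCherry (2.17e-08). The comparison of Bon+yki-RNAi with mCherry did not pass the threshold (-0.07 ± 0.03, 95% interval -0.13 to -0.01, adjusted p = 0.0513). That value passed without Bon+yki-RNAi replicate 3 (-0.09, adjusted p = 0.0363) and without mCherry replicate 3 (-0.08, 0.0356), and was 0.02 with upper-quartile scaling.

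Mer encodes Merlin, the FERM-domain homologue of the human NF2 tumour suppressor (X:19689697-19693500, minus strand). It stood at 27.3, 27.7 and 26.7 CPM in Bon+yki-RNAi, 29.8, 31.4 and 29.3 CPM in Bon and 31.4, 30.8 and 29.2 CPM in mCherry libraries. The Bon and mCherry ranges coincided, and Bon+yki-RNAi lay just below both. Its fall in Bon+yki-RNAi against Bon was small, at -0.15 ± 0.04 (adjusted p = 0.0154). It missed the threshold without Bon+yki-RNAi replicate 3 (-0.13, 0.0665), without Bon replicate 2 (-0.12, 0.0679) and with DESeq2 (-0.14, 0.0582). Bon overexpression alone gave -0.01 ± 0.04 (95% interval -0.10 to 0.07, adjusted p = 0.792), with the sign changing under upper-quartile scaling (0.052) and without any 1 of Bon replicates 1 and 3 (0.0041 and 0.014) or mCherry replicates 1 and 2 (0.017 and 0.0012). Mer fell in Bon+yki-RNAi against mCherry (-0.16 ± 0.04, adjusted p = 0.00411), although with upper-quartile scaling it had -0.07 (0.14).

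The crb gene encodes Crumbs, the transmembrane protein of the apical domain that binds Expanded and, in photoreceptors, shapes the rhabdomere stalk (3R:24295078-24314541, plus strand). It stood at 313, 304 and 314 CPM in Bon+yki-RNAi, 345, 356 and 334 CPM in Bon and 340, 341 and 329 CPM in mCherry libraries. Bon and mCherry libraries overlapped and the Bon+yki-RNAi libraries lay below them. The log2 fold change was -0.15 ± 0.03 in Bon+yki-RNAi against Bon (adjusted p = 0.00137) and 0.04 ± 0.03 in Bon against mCherry (95% interval -0.03 to 0.10, adjusted p = 0.332). With upper-quartile scaling the last of these became 0.10 (0.0053). Against mCherry, Bon+yki-RNAi had -0.12 ± 0.03 (0.00386), or -0.03 (0.449) with upper-quartile scaling.

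**Figure D3:**
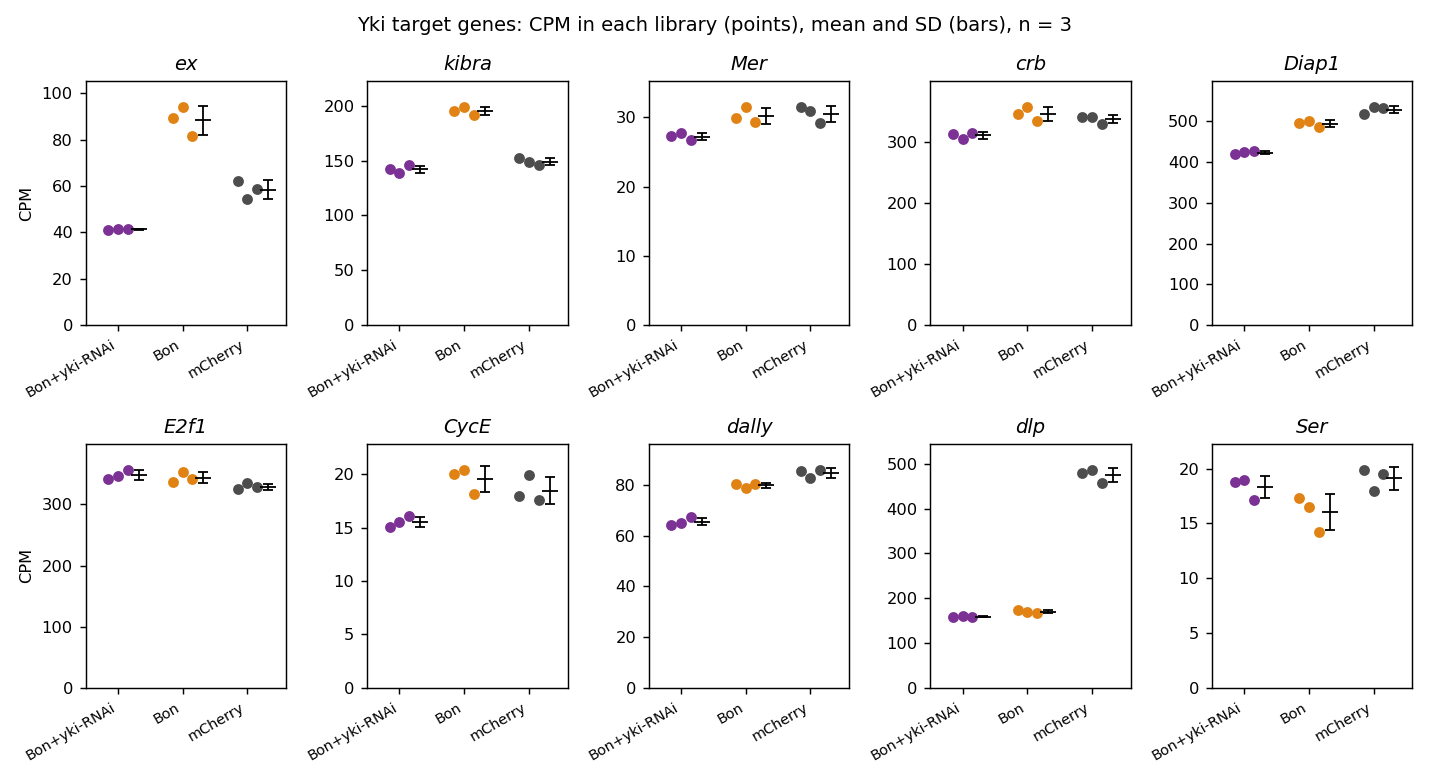
CPM of each gene in every library (points) with the group mean and SD (black bars, n = 3) in Bon+yki-RNAi, Bon and mCherry eyes; every axis starts at 0. For ex the Bon+yki-RNAi libraries lie at 41.1 to 41.6 CPM, below mCherry and Bon, while for dlp both groups with Bon lie at 158 to 174 CPM, against 457 to 487 CPM in mCherry eyes.

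The background for the counts of this and the later lists is the share of all tested genes called. That share was 27.6% in Bon+yki-RNAi against Bon and 52.4% in Bon against mCherry. Of 11 genes of the Crumbs complex and apical polarity, 1 rose and 3 fell in Bon+yki-RNAi against Bon. The junctional scaffold gene dlg1 rose (0.10 ± 0.03). Those that fell were Patj (-0.11 ± 0.03), of the Crumbs complex, yrt (-0.12 ± 0.03), whose product limits Crumbs activity, and the basolateral gene l(2)gl (-0.16 ± 0.03). Bon against mCherry gave 5 rises and 4 falls (6 and 1 with upper-quartile scaling), among them sdt, which encodes the Crumbs partner Stardust, at 0.23 ± 0.03. Of 14 genes of the Hippo core and of Yki partners, 1 rose and 4 fell in Bon+yki-RNAi against Bon, or 2 and 3 with upper-quartile scaling. The falls included yki and bon, the genes the constructs act on, and wts, which encodes the kinase that phosphorylates Yki (-0.13 ± 0.03, adjusted p = 0.00464), and the rise was that of Schip1, whose product helps to activate Hippo (0.13 ± 0.03, 0.00818). Against mCherry, in Bon eyes 7 rose and 3 fell (9 and 3 with upper-quartile scaling), the rises including the overexpressed bon itself, with wts at -0.22 ± 0.03.

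Diap1, which encodes the ubiquitin ligase that binds and restrains caspases, is on 3L:16038410-16051034 (minus strand). It stood at 419, 425 and 426 CPM in Bon+yki-RNAi, 497, 501 and 486 CPM in Bon and 518, 535 and 533 CPM in mCherry libraries. The 3 groups did not overlap and were stepped, with Bon+yki-RNAi lowest. The log2 fold change was -0.22 ± 0.02 in Bon+yki-RNAi against Bon (adjusted p = 1.08e-05) and -0.10 ± 0.02 in Bon against mCherry (0.00474), which was -0.03 (0.322) with upper-quartile scaling. Set against mCherry, Diap1 in Bon+yki-RNAi fell by 19.9% (-0.32 ± 0.02, 5.44e-08). On the opposite strand asRNA:CR45889 overlaps 11% of its exonic bases. That RNA also fell in Bon+yki-RNAi against Bon (-0.69 ± 0.07, 4.66e-06), with 194.67 to 436.5 counts per library and Diap1 had 16377 or more, and its reads cannot be told apart from those of Diap1 where the genes overlap.

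Of 11 further death genes, 1 rose and 1 fell in Bon+yki-RNAi against Bon (2 and 0 with upper-quartile scaling). They were hid, which encodes an antagonist of Diap1 (0.20 ± 0.05, adjusted p = 0.00716), and Debcl, of the Bcl-2 family (-0.12 ± 0.04, 0.036), which missed the threshold with upper-quartile scaling (-0.09, 0.0864) and DESeq2 (-0.11, 0.171). Bon overexpression gave 7 rises and 1 fall, or 9 and 1 with upper-quartile scaling. The fall, with the smallest p of the list, was that of Debcl (25.3 CPM in Bon and 37.6 CPM in mCherry eyes, -0.57 ± 0.04, adjusted p = 7.11e-09). All Diap1 antagonist genes of the list were among the rises. Of these, rpr was at 7.61 CPM in Bon and 3.74 CPM in mCherry eyes (1.03 ± 0.10, adjusted p = 4.24e-07), with skl at 0.70 ± 0.07 and grim at 0.62 ± 0.06.

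The cell cycle genes E2f1 and CycE differed from each other. E2f1, the activating E2F transcription factor gene (3R:21620304-21660871, minus strand), stood at 342, 346 and 356 CPM in Bon+yki-RNAi, 337, 354 and 341 CPM in Bon and 325, 334 and 328 CPM in mCherry libraries. Its values overlapped between the groups with Bon, with 0.02 ± 0.03 in Bon+yki-RNAi against Bon (95% interval -0.04 to 0.08, adjusted p = 0.699). Between Bon and mCherry it had 0.06 ± 0.03 (95% interval 0.0044 to 0.12, adjusted p = 0.0677), which passed without Bon replicate 1 (0.09, 0.031), without mCherry replicate 2 (0.08, 0.0236) and with upper-quartile scaling (0.13, 0.000625). E2f1 was the 1 gene that rose in Bon+yki-RNAi against mCherry (0.08 ± 0.03, 0.0227), a call lost without Bon+yki-RNAi replicate 3 (0.06, 0.118).

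CycE, which encodes the cyclin that drives entry into S phase and is itself an E2F target (2L:15727581-15748150, minus strand), stood at 15.1, 15.5 and 16.0 CPM in Bon+yki-RNAi, 20.01, 20.4 and 18.2 CPM in Bon and 17.9, 19.9 and 17.6 CPM in mCherry libraries. All Bon+yki-RNAi libraries lay below the others. The log2 fold change was -0.33 ± 0.06 in Bon+yki-RNAi against Bon (adjusted p = 0.000715), so that it fell by 20.5%, and -0.25 ± 0.06 in Bon+yki-RNAi against mCherry (0.00251). Between Bon and mCherry CycE had 0.08 ± 0.06 (95% interval -0.05 to 0.20, adjusted p = 0.273), or 0.15 (0.0401) with upper-quartile scaling. Opposite-strand genes overlap 4.91% of its exonic bases and 4.39% of those of E2f1, and none of these partners passed the threshold in any of the 3 comparisons.

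Of 11 genes of the E2F module and of the cell cycle, 2 rose and 1 fell in Bon+yki-RNAi against Bon, also with upper-quartile scaling. The rises were dap, which encodes the inhibitor of the CycE kinase (32 CPM in Bon+yki-RNAi and 23.0 CPM in Bon eyes, 0.47 ± 0.06, adjusted p = 5.14e-05), and Dp, the E2F partner gene (0.08 ± 0.03, 0.0417), which missed the threshold with DESeq2 (0.09, 0.0521). The Cdc25 phosphatase gene stg fell (-0.29 ± 0.08, 0.0324). With Bon overexpressed 4 rose and 3 fell against mCherry (4 and 2 with upper-quartile scaling), with dap at 23.0 CPM in Bon and 112 CPM in mCherry eyes (-2.28 ± 0.05, 9.03e-13) and stg at 1.43 ± 0.09.

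The glypicans dally and dlp (dally-like) encode heparan sulfate proteoglycans of the cell surface that bind Dpp, Wingless and Hedgehog. They lie on the same chromosome arm (3L:8827505-8891192 and 3L:14632601-14671609, both plus strand), and neither shares an exonic base with another gene. The dally gene stood at 64.3, 65.0 and 67.3 CPM in Bon+yki-RNAi, 80.4, 78.8 and 80.4 CPM in Bon and 85.5, 82.6 and 85.9 CPM in mCherry libraries. The Bon+yki-RNAi libraries were well apart, and Bon lay just under mCherry. Its log2 fold change was -0.29 ± 0.03 in Bon+yki-RNAi against Bon (adjusted p = 4.95e-06) and -0.37 ± 0.03 in Bon+yki-RNAi against mCherry (6.84e-08). Between Bon and mCherry dally fell slightly (-0.08 ± 0.03, 0.0241). That call was lost without any 1 of Bon replicates 1, 2 and 3 (-0.08, -0.06 and -0.08, adjusted p = 0.0748, 0.133 and 0.0589) or mCherry replicates 1 and 3 (-0.07 and -0.08, 0.12 and 0.0588), with DESeq2 (-0.08, 0.071), with no low-count filter (-0.08, 0.0536) and with upper-quartile scaling (-0.02, 0.64).

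The dlp gene showed the opposite balance. It stood at 159, 161 and 158 CPM in Bon+yki-RNAi, 174, 168 and 168 CPM in Bon and 479, 487 and 457 CPM in mCherry libraries. Both groups with Bon lay far below mCherry and close to each other. Relative to mCherry, dlp in Bon eyes fell by 64.1% (-1.48 ± 0.03, adjusted p = 1.6e-14), more than 94.1% of tested genes by size of change, and in Bon+yki-RNAi eyes it fell by 66.4% (-1.57 ± 0.03, 1.12e-14). Between Bon+yki-RNAi and Bon its fall of -0.10 ± 0.03 was marginal (0.0264). It missed the threshold without Bon+yki-RNAi replicate 1, 2 or 3 (-0.09, -0.10 and -0.09, adjusted p = 0.0846, 0.0537 and 0.0994), without Bon replicate 1 (-0.08, 0.111), with DESeq2 (-0.09, 0.0519) and with upper-quartile scaling (-0.07, 0.0813).

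Of 15 ligand, receptor and heparan sulfate genes that work with the glypicans, 5 rose and 5 fell in Bon+yki-RNAi against Bon (6 and 5 with upper-quartile scaling), where 27.6% of all genes were called. The BMP ligand gene dpp was at 8.01 CPM in Bon+yki-RNAi and 32.8 CPM in Bon eyes (-2.03 ± 0.06, adjusted p = 1.44e-11), and ptc, the Hedgehog receptor gene, had -0.40 ± 0.04. Notum, which encodes an extracellular enzyme that acts against Wingless, rose by 0.58 ± 0.04, and trol, the perlecan gene, by 0.57 ± 0.04. Bon against mCherry had 7 rises and 5 falls, or 8 and 5 with upper-quartile scaling, where 52.4% of all genes were called. The falls included Sulf1, a heparan sulfate sulfatase gene (69.4 CPM in Bon and 496 CPM in mCherry eyes, -2.84 ± 0.03, 2.44e-17), trol (-2.67 ± 0.04), dpp (-1.40 ± 0.05) and hh (-1.03 ± 0.04).

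Ser encodes Serrate, the second Drosophila Notch ligand beside Delta (3R:27172090-27194267, minus strand). It stood at 18.8, 19.0 and 17.1 CPM in Bon+yki-RNAi, 17.3, 16.5 and 14.2 CPM in Bon and 19.9, 17.9 and 19.5 CPM in mCherry libraries. The Bon libraries were lower than mCherry but overlapped with Bon+yki-RNAi. Against mCherry, Ser in Bon eyes fell (-0.25 ± 0.07, adjusted p = 0.00968), a call lost without mCherry replicate 1 (-0.21, 0.0542). The addition of yki-RNAi to Bon gave 0.19 ± 0.07 (95% interval 0.04 to 0.34, adjusted p = 0.0649). That value passed without Bon+yki-RNAi replicate 3 (0.24, 0.0464), without Bon replicate 1 (0.25, 0.0321) and with upper-quartile scaling (0.21, 0.0388). Against mCherry, Bon+yki-RNAi had -0.06 ± 0.07 (95% interval -0.21 to 0.09, adjusted p = 0.511), or 0.03 with upper-quartile scaling. Ser thus had its lowest mean in Bon eyes (16.0 ± 1.63 CPM), where ex and kibra had their highest. The means of crb and CycE were also highest there, but for both the Bon and mCherry libraries overlapped.

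Of 9 genes of the Notch receptor and its modifiers, 2 rose and 3 fell in Bon+yki-RNAi against Bon, also with upper-quartile scaling. The glycosyltransferase gene fng, whose product makes Notch less sensitive to Serrate, fell (177 CPM in Bon+yki-RNAi and 231 CPM in Bon eyes, -0.38 ± 0.03, adjusted p = 3.62e-07). The ubiquitin ligase gene neur rose (0.22 ± 0.03). Bon overexpression gave 4 rises and 4 falls (4 and 3 with upper-quartile scaling), with fng at 0.93 ± 0.03 and Delta at -0.99 ± 0.06.

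Of 12 further reported Yki targets 9 were tested, of which 4 rose, 2 fell and 3 did not pass the threshold in Bon+yki-RNAi against Bon, with a median log2 fold change of 0.16. With upper-quartile scaling 4 rose and 1 fell, and with DESeq2 3 rose and 1 fell. No test compared this list with the 10 genes. The Golgi kinase gene fj fell (117 CPM in Bon+yki-RNAi and 141 CPM in Bon eyes, -0.27 ± 0.05, adjusted p = 0.00108). Of these targets wg also belongs to the glypican ligand list. The EGFR ligand gene vn (20.7 CPM in Bon+yki-RNAi and 12.6 CPM in Bon eyes, 0.71 ± 0.07, 3.35e-06), wg, which encodes the ligand Wingless (0.39 ± 0.04, 1.21e-05), and the growth regulator gene Myc (0.16 ± 0.03, 0.00282) rose. Between Bon and mCherry 7 rose and 2 fell, also with upper-quartile scaling, or 6 and 2 with DESeq2, with vn at -1.82 ± 0.06, CycA at 1.11 ± 0.03 and wg at 0.63 ± 0.04. The precursor of the bantam miRNA, the best known miRNA target of Yki, had at most 3.5 counts in a library, upd3 at most 4.5 and vg at most 9, so none of the 3 was tested.

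**Figure D4:**
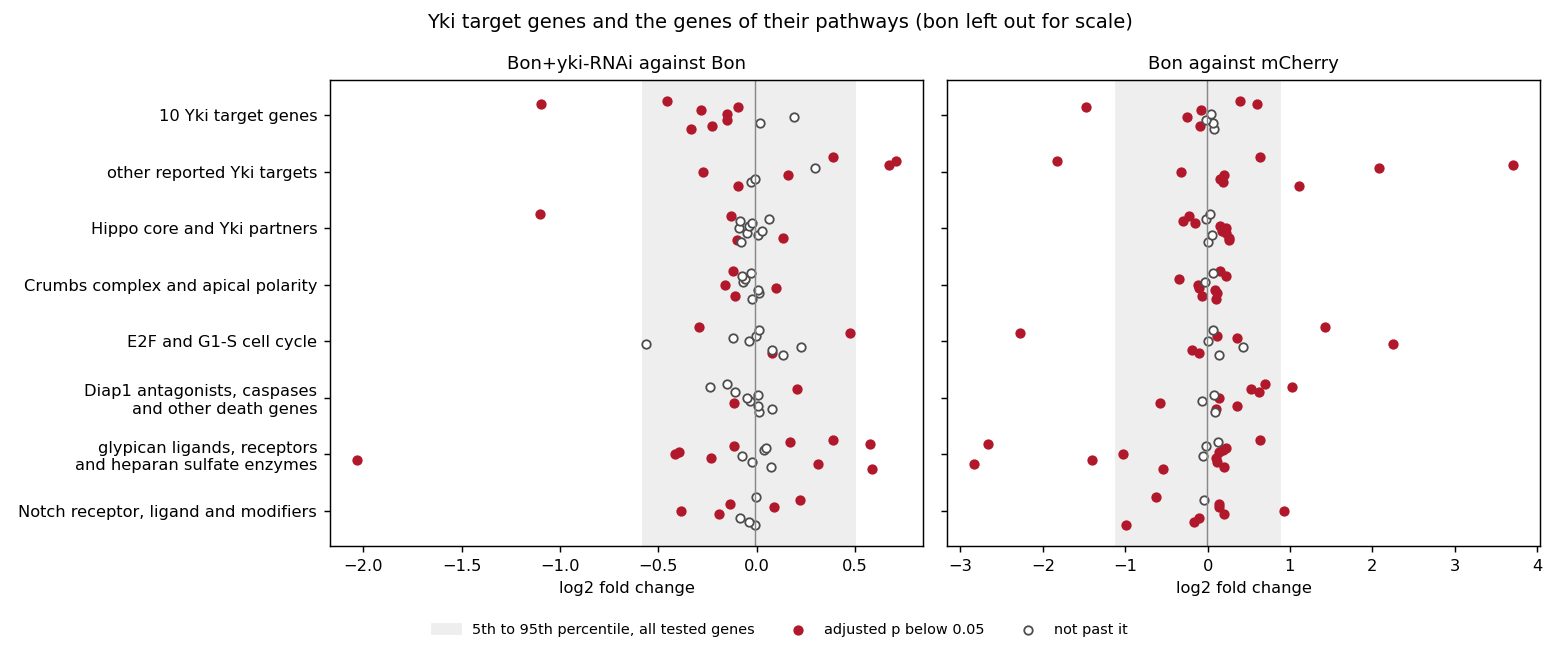
Log2 fold change of the 10 Yki target genes (top row) and of the genes of 7 related lists in Bon+yki-RNAi against Bon and in Bon against mCherry; 1 point is 1 gene, filled red where it passed an adjusted p of 0.05, and the grey band spans the 5th to 95th percentile of all tested genes. In the left panel 8 of the 10 points of the top row are filled and below 0, while the next row, of other reported Yki targets, has 4 filled points above 0 and 2 below.

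Among themselves the 10 genes followed several profiles over the 9 libraries. Likeness was measured as the root-mean-square difference of log2 CPM after centring each gene on its own mean. The closest pairs were Mer with crb (0.037) and Diap1 with dally (0.0403), and the most distant was ex with dlp (0.851). Outside the lists, the gene most like ex was osy (0.0999), followed by mey (0.144), against a median of 0.466 for the named genes outside the lists. That median was 0.144 for Mer, 0.137 for crb, 0.182 for Diap1 and 0.2 for dally. Sema-5c (0.0381) was closest to kibra, kune, a claudin gene, to Diap1 (0.0184), Pi4KIIalpha to dally (0.0313) and Mppe to dlp (0.049).

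Markers of cell types moved beside these genes. Of 8 epidermal trichome markers, 0 rose and 7 fell in Bon+yki-RNAi against Bon, and their summed level was 1610 to 1630 CPM in Bon+yki-RNAi, 2450 to 2640 CPM in Bon and 2070 to 2160 CPM in mCherry libraries. In Bon against mCherry 5 of these 8 rose and 3 fell. Among the rises sha, singled out after its values were seen, averaged 610.5 CPM in Bon and 95.4 CPM in mCherry eyes. Among the falls dyl averaged 26.6 CPM in Bon and 330 CPM in mCherry eyes. The other falls were dy (-1.24 ± 0.135) and sn (-0.29 ± 0.03), so the sums combine genes that moved in opposite directions. In Bon+yki-RNAi against Bon 3 of 8 genes listed as markers of brain and optic lobe neurons rose and 0 fell. Of 14 retinal markers 6 rose and 4 fell. The neuronal sums were 2420 to 2560 CPM in Bon+yki-RNAi, 2300 to 2410 CPM in Bon and 1630 to 1880 CPM in mCherry libraries. Most of each sum was the single gene brp, which averaged 2073, 1999 and 1470 CPM in these groups. Whether the genes of this list tell brain neurons from neurons of the retina was not tested. In Bon against mCherry 10 of the 14 retinal markers fell and 2 rose, with sums of 2990 to 3060 CPM in Bon and 4440 to 4490 CPM in mCherry libraries, and 3 of 7 glial and 4 of 7 hemocyte markers fell. The hemocyte marker He was at 0 in every library, and no marker of the epidermal, neuronal, retinal or glial lists was. The part of these markers in the values of the 10 genes was not tested.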

How the data were processed

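The authors deposited 1 table of estimated counts per gene for each of the 9 libraries (paired 150 nt reads from 100 ng of total RNA after poly(A) selection, per the labels' protocols). The tools named, per the submitters' processing notes, were STAR 2.7.0e, Bowtie2 2.3.5.1, featureCounts of Subread 1.6.2, cutadapt 2.9 and DESeq2 1.30.1, on build BDGP6. The role of each and the use of strand in counting were not given in the sources used here. Between 39.7 and 42.8% of the deposited counts in a library were not whole, so reads of overlapping genes may have been divided. The authors also deposited tables for 2 comparisons, holding a signal (counts scaled by size factors), a ratio or fold change, a log2 fold change and a p-value, per the file headers; they entered no test.

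Counts were rounded, and genes were kept with filterByExpr (minimum count 10) of edgeR 4.0.16 in R 4.3.3 and scaled by TMM factors. The quasi-likelihood test (robust; a model of group alone fitted to the 9 libraries together) yielded log2 fold changes (± standard error, the fold change over the square root of F), 95% intervals and two-sided p-values, adjusted by Benjamini-Hochberg over the 11068 genes tested. The threshold was an adjusted p of 0.05. Groups and replicate numbers come from the sample titles, and the series design calls the replicates biological. Alternatives were DESeq2 1.42.0, RLE and upper-quartile factors, no filter, 6 libraries per fit, the replicate number as a block, and leaving out each library. Current symbols were matched for 17252 of 17558 identifiers. Up to the 4 list members with the smallest p were named per comparison, and for likeness the nearest 2 genes of each member with a proper symbol outside the lists. The members and lists were chosen with earlier results of these data known. The test was checked on simulated counts. The median of all genes moved by at most 0.09 on the log2 scale between scalings. At these depths 3 counts correspond to 0.0618 to 0.0859 CPM, which covers counting error only. Gene positions were read from the deposited count tables. No promoter or protein sequence was used here.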

Additional observations from a re-analysis of the deposited data

How the results depend on the processing

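The direction of ex, of kibra and of dlp in Bon+yki-RNAi against Bon and in Bon against mCherry was kept under all 15 alternatives run, and both calls of ex and kibra held under each. Across these alternatives ex ranged from -1.15 to -1.05 in Bon+yki-RNAi against Bon and from 0.55 to 0.67 in Bon against mCherry. With upper-quartile factors the members that rose in Bon against mCherry numbered 5, and those that fell 2, and 1 member (Ser) rose in Bon+yki-RNAi against Bon. The signs of Mer in Bon against mCherry (0.0523) and of kibra (0.0226) and Ser (0.0326) in Bon+yki-RNAi against mCherry reversed, all without passing the threshold. That scaling also moved the share of rises among all calls to 62.6% from 48.1% in Bon against mCherry, to 52.3% from 41.0% in Bon+yki-RNAi against Bon, and to 63.8% from 46.0% in Bon+yki-RNAi against mCherry; the cause was not tested.

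Without single libraries, the members that rose numbered 2 to 3 in Bon against mCherry, 0 to 1 in Bon+yki-RNAi against Bon and 0 to 1 in Bon+yki-RNAi against mCherry, and those that fell 2 to 4 in Bon against mCherry, 6 to 8 in Bon+yki-RNAi against Bon and 7 to 8 in Bon+yki-RNAi against mCherry. The falls in Bon against mCherry numbered 2 without mCherry replicate 1. Mer in Bon against mCherry then ranged from -0.0478 to 0.0174. The replicate numbers did not clearly pair the samples. Correlations of same-numbered deviations ran from -0.01 to 0.18, and those of differently numbered ones from -0.13 to 0.08. Not every library correlated best with its own number, and these values do not settle whether replicates shared a weak effect. With the replicate block, 1 member (Ser, 0.19, adjusted p = 0.0291) rose in Bon+yki-RNAi against Bon, E2f1 passed in Bon against mCherry (0.06, 0.0452), and calls over all genes numbered 3448 in Bon+yki-RNAi against Bon (3054 without the block) and 5986 in Bon against mCherry (5795 without it). By the authors' deposited table, 6 members fell in Bon+yki-RNAi against Bon, and by the authors' deposited table for Bon against mCherry 2 rose and 3 fell. With 3 libraries a group, the calls of Mer and dlp in Bon+yki-RNAi against Bon and of dally in Bon against mCherry, all changes under 10%, were the ones lost most often.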
